A study of Mus musculus with 22 samples.

Results

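Cytosolic ribosomal proteins are the protein part of the machine that translates messenger RNA, and their genes were followed here in the dentate gyrus of mice with and without serum response factor (SRF) after seizures. The members were the gene symbols of the array that begin with Rpl or Rps and a digit, or with Rplp, without the S6 kinase genes (Rps6k) and without 31 symbols that the platform marks as pseudogenes (-ps). This rule gave 65 genes of the 22491 with a probe, on 96 probes, and the probe with the highest mean signal stood for each gene. They comprised 30 proteins of the large subunit, 23 of the small subunit, the 3 proteins of the P-stalk, 8 paralogs or retrogenes (Rpl3l, Rpl7l1, Rpl22l1, Rpl36al, Rpl39l, Rps4l, Rps27l and Rps23rg1) and Rps19bp1, whose product binds Rps19 and is itself no ribosomal protein. Rpsa, a small-subunit gene whose symbol lies outside this rule, had a signal under 9 and was called in no comparison.

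The study asked which activity-induced transcripts depend on SRF, a transcription factor that binds CArG boxes and carries the response of many genes to neuronal activity. Total RNA was taken from the dentate gyrus of 22 adult males, and 1 Illumina MouseWG-6 array was run for each animal. KO mice were Srf f/f;CaMKCreERT2, in which a tamoxifen-activated Cre under the CaMKIIα promoter deletes the loxP-flanked Srf in excitatory forebrain neurons only, so other cells of the tissue keep the gene. CTR mice were Srf f/f littermates without the Cre, and both genotypes had been injected with tamoxifen as adults. Kainic acid (KA), which activates a class of glutamate receptors and causes seizures, was injected into the abdominal cavity at 35 to 50 mg/kg, and the tissue was taken 6 h after the onset of status epilepticus or 6 h after saline. There were 5 KO and 5 CTR arrays after KA, and 6 KO and 6 CTR arrays after saline.

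Ribosomal proteins are needed in fixed proportions, and their transcripts are among the most abundant of any cell. Most of these messages begin with a 5′ terminal oligopyrimidine (TOP) stretch, through which mTORC1 controls how fast they are translated, so that supply of the proteins can change without a change of the messages. In neurons, protein synthesis is required for lasting changes of synapses after strong activity.

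The start sites are shown first, because TOP letters are the element that mTORC1 acts through and the CArG box is the site that SRF binds. RefSeq promoter windows (GRCm38.p6, 250 bases before to 50 after the start) matched 54 of the 65 members. A CArG box stood in 1 of these 54 windows (1.85%) and in 1.81% of the windows of all 27025 genes. The ETS core CCGGAA, searched on both strands, was present in 53.7% of the members, against 16.7% of all genes, and AAGATGG, the core letters of a YY1 site, in 14.8%, against 7.28%. CTTTC or CTTTT on the gene's own strand, from 10 bases before to 20 after the start, was present in 15 members (27.8%), against 7.77% of all genes. CCGGAA and AAGATGG can overlap. These matches describe letters in a window and were not tested. The windows from 40 bases before to 20 after the annotated start follow for 8 members, with capitals for CTTTC or CTTTT near the start and, on either strand, for CCGGAA and for AAGATGG. The first 4 carry the TOP letters in the searched bases, and the last 4 are members with large responses to KA described further on. The 2 sets of 4 are no contrast, since Rpl13a of the first set also rose by more than 1.5-fold in KO mice. In Rpl4 and Rps15a, CTTTC starts upstream of the searched bases and so was not counted.
Rpl12, chr2:32961672-32961731, plus strand: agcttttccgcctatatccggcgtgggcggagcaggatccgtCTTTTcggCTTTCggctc
Rpl13a, chr7:45128726-45128785, minus strand: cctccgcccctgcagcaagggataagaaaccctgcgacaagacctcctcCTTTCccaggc
Rps6, chr4:86857348-86857407, minus strand: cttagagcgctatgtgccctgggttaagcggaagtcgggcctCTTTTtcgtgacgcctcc
Rplp2, chr7:141447611-141447670, plus strand: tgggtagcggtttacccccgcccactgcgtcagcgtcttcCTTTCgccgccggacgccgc
Rpl22l1, chr3:28805468-28805527, plus strand: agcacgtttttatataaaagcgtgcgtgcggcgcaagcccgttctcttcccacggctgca
Rplp0, chr5:115559427-115559486, plus strand: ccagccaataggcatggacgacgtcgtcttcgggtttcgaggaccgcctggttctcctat
Rpl4, chr9:64173347-64173406, plus strand: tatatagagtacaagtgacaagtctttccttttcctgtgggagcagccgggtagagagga
Rps15a, chr7:118116128-118116187, minus strand: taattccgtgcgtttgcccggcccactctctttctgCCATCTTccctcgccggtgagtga
Rpl12, Rpl13a and Rps6 are 3 of the 18 members that were higher in CTR mice after KA. Of the 17 of those 18 with a window, 35.3% held CTTTC or CTTTT, against 25.7% of the 35 members with a window that were not called. For AAGATGG the shares were 29.4% (5 of 17) and 2.86% (1 of 35). Rpl22 and Rps15a, the members called lower in CTR mice, also held AAGATGG, so these letters do not go with a rise alone.

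The arrays themselves differed in ways that touch these genes. Srf checked the labels, with log2 signals of 10.95 to 11.42 in KO mice after KA, 11.73 to 12.22 in CTR mice after KA, 11.20 to 11.59 in KO mice after saline and 12.28 to 12.62 in CTR mice after saline, without overlap between genotypes. The granule cell marker Prox1 had a mean log2 signal of 12.57, while 5 of 12 granule cell markers lay under 9, near the low end of the scale. In this bulk tissue, fewer cells of a type and less RNA in each cell cannot be told apart. The 99th percentile of an array's signals lay between 14.64 and 14.69 in KO mice after KA and 14.76 and 15.01 in CTR mice after KA, and between 14.41 and 14.67 in KO mice and 14.53 and 14.67 in CTR mice after saline. The 99th percentile was thus higher in the CTR arrays after KA than in the other groups. Of the 65 members, 50 have a mean log2 signal of 12 or more. Genes as bright did not shift as a body, since their median difference between KA and saline in CTR mice was −0.01. In addition, 5 arrays that span all groups (KO KA replicate 5, CTR KA replicate 5, KO saline replicates 5 and 6, CTR saline replicate 6) stood apart from the other 17 on 761 of 46237 probes, without overlap. Rplp2, Rps16, Rps24 and Rps3a1 were such members, all lower on the 5 arrays.

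After KA, the ribosomal protein transcripts as a whole moved little by their brightest probes, while a few of them and several paralogs moved clearly. Signals crowd at the top of the scale in the 23 members over 15, where a change can be understated. In KO mice 8 members were higher after KA and none was lower (Benjamini-Hochberg adjusted p under 0.05 with limma), beside a background of 8.19% of all genes higher and 9.14% lower, and 18 members passed an unadjusted p of 0.05. In CTR mice 18 members were higher and 2 were lower, or 27.7% and 3.08% of the members, beside 14.6% and 15% of all genes. Of the 2670 genes with a mean signal of 12 or more, as 50 of the members have, 19% were higher and 16.6% lower in KO mice, and 28% were higher and 29.4% lower in CTR mice. The share of members higher in CTR mice was thus close to that of genes as bright, while the share lower (3.08%) was under it. In KO mice 12.3% of the members were higher and 0% lower, both under the shares of genes as bright. The median log2 difference of the members was 0.08 in KO mice and 0.05 in CTR mice, and that of all genes was 0.00 and −0.01. After quantile normalization the members' median was 0.04 in KO mice and 0.00 in CTR mice. This step also lowered the median of the genes with a mean signal of 12 or more. It went from 0.01 to −0.03 in KO mice and from −0.01 to −0.15 in CTR mice, so the members' median stayed above it. In KO mice 49 members, and in CTR mice 42, lay within 0.25 of no change on the log2 scale. A change of more than 1.5-fold was reached by 2 members in KO mice (8.38% of all genes) and by 7 in CTR mice (17.2% of all genes), 6 of them higher and 1 lower. Of the 8 members called in KO mice 7 (87.5%) were also called in CTR mice, where they made up 35% of the 20 calls. Quantile normalization, which gives all arrays the same distribution, left 7 higher and none lower in KO mice, and 8 higher and 4 lower in CTR mice, 10 of them among the 20. The 4 lower ones were then Rps15a, Rpl22, Rpl36a and Rpl39. With the 5 arrays apart as a term of the fit, 12 members were called in KO mice and 21 in CTR mice. Without those arrays, 5 (Rpl13a, Rpl22l1, Rpl36al, Rpl4 and Rps16) were called in KO mice and 22 in CTR mice.

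**Figure D1:**
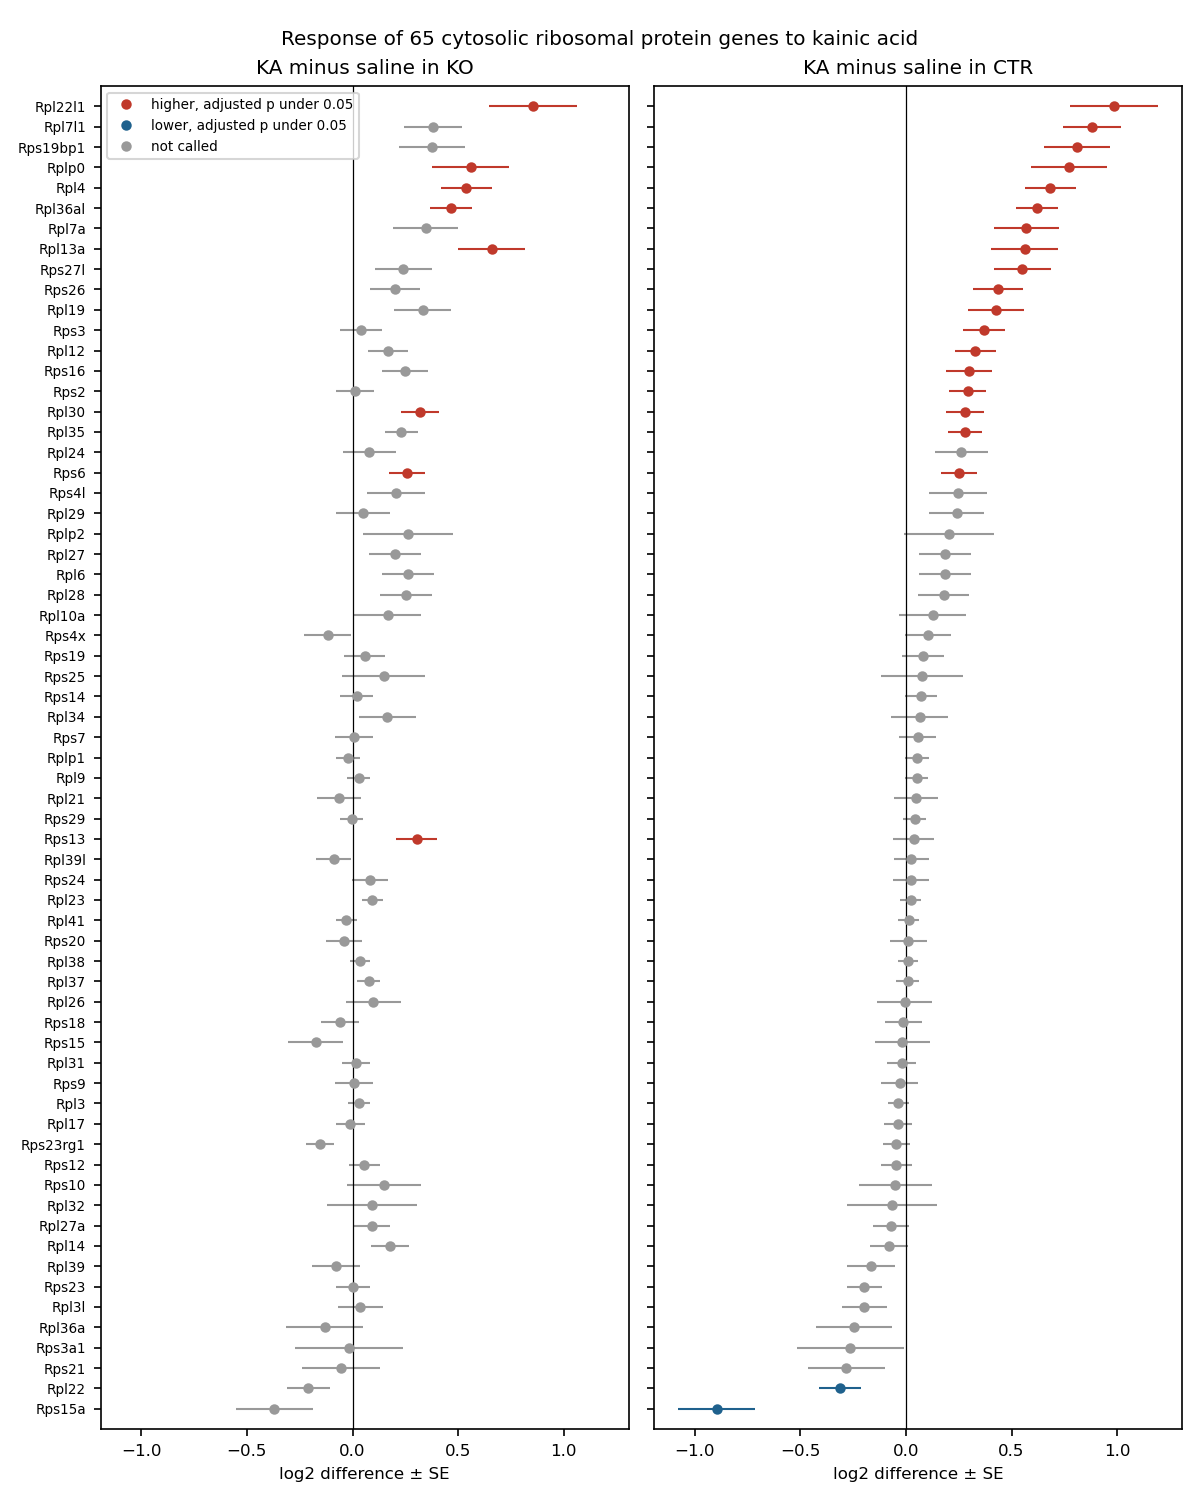
Log2 difference between KA and saline (x axis, with standard error) for each of the 65 members (y axis, ordered by the difference in CTR mice), in KO mice on the left and CTR mice on the right. Red marks the 8 and 18 members that were higher and blue the 2 that were lower in CTR mice, and most members lie close to 0.

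The calls were spread over both subunits, the P-stalk and the paralogs. Rplp0 was called in both genotypes as 1 of 3 P-stalk genes. Among the 8 paralogs and retrogenes, 2 were higher in KO mice and 4 in CTR mice, with median log2 differences of 0.22 and 0.40. Among the 30 large-subunit genes 3 were higher in KO mice, and in CTR mice 7 were higher and 1 lower. Among the 23 small-subunit genes 2 were higher in KO mice, and in CTR mice 5 were higher and 1 lower. The medians of both subunits were 0.09 and 0.01 in KO mice, for large and small, and 0.05 and 0.04 in CTR mice. Of 9 members whose probe signal lay under 9, none was called in any comparison, and of 23 over 15, where signals crowd at the top of the scale, none was called in KO mice and 2 in CTR mice (Rps2 and Rpl35). The 57 members not called in KO mice lay between −0.37 and 0.38, and the 45 not called in CTR mice between −0.28 and 0.26.

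Rpl22l1, the paralog that can take the place of Rpl22 in the large subunit, had the greatest rise of the 65 members in both genotypes. Its log2 signals (probe ILMN_2678755) were 10.91, 11.48, 11.51, 10.58 and 10.39 in KO mice after KA, against 9.80 to 10.38 (median 10.18) in KO mice after saline. In CTR mice they were 11.12, 10.89, 11.75, 11.11 and 10.501 after KA, against 9.60 to 10.43 (median 10.11) after saline. Every array after KA lay above every saline array of its genotype. The difference was 0.85 in KO mice (1.81-fold, SE 0.21, adjusted p = 0.0059) and 0.99 in CTR mice (1.98-fold, SE 0.21, adjusted p = 7.3e-04).

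Rpl22 itself, a large-subunit protein outside the catalytic core whose product represses Rpl22l1 in mice, went the other way in CTR mice. It had 13.06, 12.88, 12.79, 12.98 and 13.20 in KO mice after KA, against 12.90 to 13.30 (median 13.26) after saline, and 13.18, 12.66, 12.90, 12.83 and 13.18 in CTR mice after KA, against 13.10 to 13.41 (median 13.29) after saline. The groups overlapped in both genotypes. The difference was −0.21 in KO mice (SE 0.10, adjusted p = 0.21) and −0.31 in CTR mice (SE 0.10, adjusted p = 0.025). The call in CTR mice was lost without CTR KA replicate 2, 3 or 4 or CTR saline replicate 2, one at a time (highest adjusted p = 0.10), and was kept after quantile normalization (−0.40, adjusted p = 0.0018).

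**Figure D2:**
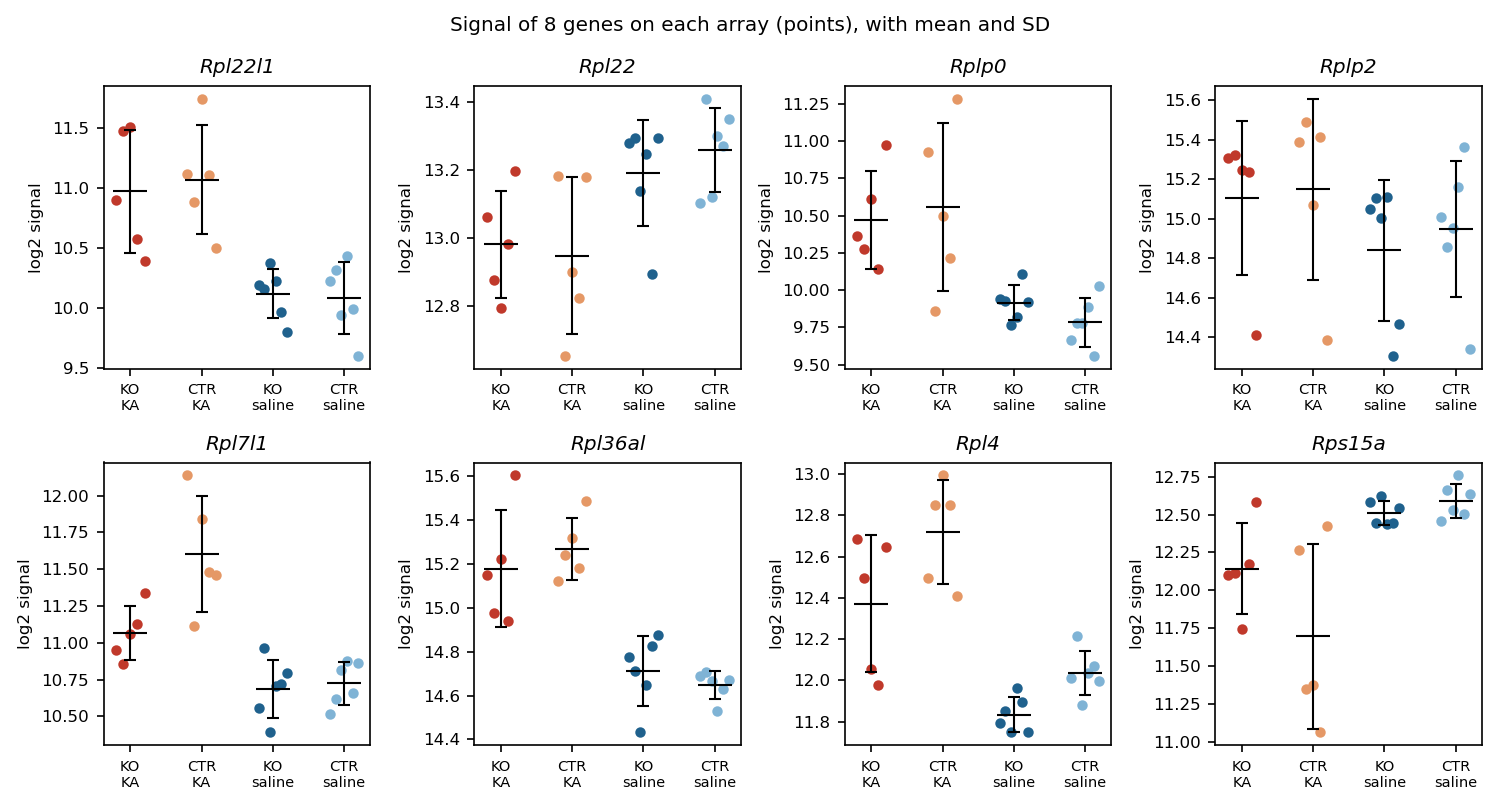
Log2 signal (y axis) of 8 members on each of the 22 arrays (points) in the 4 groups (x axis), with the group mean and SD in black. Rpl22l1, Rpl36al and Rpl4 lie higher on the KA arrays of both genotypes than on any saline array of the same genotype, Rps15a lies lower in CTR mice after KA, and Rplp2 splits within every group.

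Rps15a, a small-subunit protein, fell most among the members. Its log2 signals were 12.10, 12.12, 11.74, 12.17 and 12.59 in KO mice after KA, against 12.44 to 12.62 (median 12.50) after saline, and 12.27, 11.35, 11.38, 11.06 and 12.43 in CTR mice after KA, against 12.46 to 12.76 (median 12.58) after saline. All 5 CTR arrays after KA lay below the lowest CTR saline array, 3 of them by more than 1 on the log2 scale, while in KO mice 1 array after KA lay within the saline range. The difference was −0.37 in KO mice (SE 0.18, adjusted p = 0.23) and −0.90 in CTR mice (SE 0.18, adjusted p = 5.4e-04, 1.86-fold lower). Its interaction term, the difference between these responses, was 0.53 (adjusted p = 0.35).

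The P-stalk, which binds the elongation factors, gave 3 different pictures. Rplp0, its anchor protein and a widely used reference transcript in quantitative PCR (also called Arbp), had 10.37, 10.28, 10.61, 10.14 and 10.98 in KO mice after KA, against 9.77 to 10.11 (median 9.93) after saline. In CTR mice it had 10.93, 9.86, 10.501, 10.22 and 11.29 after KA, against 9.56 to 10.03 (median 9.78) after saline. All KO arrays after KA lay above the KO saline arrays, and 4 of the 5 CTR arrays after KA lay above the CTR saline arrays. The difference was 0.56 in KO mice (1.47-fold, SE 0.18, adjusted p = 0.043) and 0.77 in CTR mice (1.71-fold, SE 0.18, adjusted p = 0.0021). The second Rplp0 probe (ILMN_1249815), of lower signal (mean 8.14), was also higher after KA, by 0.58 in KO mice (adjusted p = 6.4e-04) and 0.31 in CTR mice (adjusted p = 0.042). The KO call of the brighter probe was lost in 12 of 22 fits without 1 array (highest adjusted p = 0.15) and without the 5 arrays apart (adjusted p = 0.062).

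Rplp1, one of the acidic stalk proteins, sat at the top of the scale at 16.02 ± 0.06 in KO and 16.05 ± 0.02 in CTR mice after KA and 16.04 ± 0.06 in KO and 15.999 ± 0.11 in CTR mice after saline (SD, n = 5, 5, 6 and 6). Its differences after KA were −0.02 in KO mice (adjusted p = 0.9) and 0.05 in CTR mice (adjusted p = 0.64). Rplp2, the other acidic stalk protein, differed between the arrays that stood apart and the rest. Its signal lay between 14.31 and 14.47 on the 5 arrays that stood apart and between 14.86 and 15.49 on the 17 others. Its response to KA was 0.26 in KO mice (SE 0.21, adjusted p = 0.55) and 0.20 in CTR mice (SE 0.21, adjusted p = 0.62). In CTR mice it was 0.23 with the 5 arrays as a term (adjusted p = 0.052) and 0.27 without them (adjusted p = 0.046), where it was called higher.

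Rpl36al, a paralog of the large-subunit gene Rpl36a, rose in both genotypes. It had 15.15, 14.97, 15.22, 14.94 and 15.60 in KO mice after KA, against 14.43 to 14.88 (median 14.74) after saline, and 15.12, 15.24, 15.32, 15.18 and 15.49 in CTR mice after KA, against 14.53 to 14.71 (median 14.67) after saline. No array after KA overlapped with the saline arrays of its genotype. The difference was 0.47 in KO mice (SE 0.10, adjusted p = 0.0021) and 0.62 in CTR mice (SE 0.10, adjusted p = 3.8e-05). Rpl36a, named after its values were seen, had differences of −0.13 in KO mice (adjusted p = 0.77) and −0.25 in CTR mice (adjusted p = 0.42). After quantile normalization Rpl36a was called lower in CTR mice (−0.48, adjusted p = 0.042).

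Rpl4, a large-subunit protein that lines the exit tunnel, was likewise without overlap in both genotypes. It had 12.68, 12.50, 12.06, 11.98 and 12.65 in KO mice after KA, against 11.75 to 11.96 (median 11.82) after saline, and 12.49, 12.85, 12.99, 12.85 and 12.41 in CTR mice after KA, against 11.88 to 12.21 (median 12.02) after saline. It rose by 0.54 on the log2 scale in KO mice (adjusted p = 0.0032) and by 0.68 in CTR mice (adjusted p = 1.1e-04), and its second probe (ILMN_2631003) by 0.29 (adjusted p = 0.034) and 0.30 (adjusted p = 0.014). Rpl13a, a large-subunit protein also known as a repressor of translation of inflammatory transcripts, had 12.40 ± 0.19 in KO mice after KA, against 11.74 ± 0.17 after saline, and 12.37 ± 0.48 in CTR mice after KA, against 11.81 ± 0.21 after saline (SD). The rise was 0.66 in KO mice (adjusted p = 0.0055) and 0.56 in CTR mice (adjusted p = 0.0095), and the 2 members over 1.5-fold in KO mice were Rpl13a and Rpl22l1.

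Rps6, the small-subunit protein whose phosphorylation reports mTORC1 activity, had small rises of 0.26 in KO mice (adjusted p = 0.047) and 0.25 in CTR mice (adjusted p = 0.032). Both calls ended after quantile normalization, where the differences were 0.18 (adjusted p = 0.10) and 0.02 (adjusted p = 0.89). They also ended without the 5 arrays apart (adjusted p = 0.40 in KO mice and 0.056 in CTR mice) and in 15 and 8 of the 22 fits without 1 array. Rps13, a small-subunit protein, was the only member called in KO mice and not in CTR mice, by 0.30 (adjusted p = 0.039), against 0.04 in CTR mice (adjusted p = 0.87). The difference between both responses was 0.27 (adjusted p = 0.39), and after quantile normalization 0.44 (adjusted p = 0.023). The call in KO mice was lost in 7 of the 22 fits without 1 array and without the 5 arrays apart (0.23, adjusted p = 0.27). Its second probe (ILMN_2482591), of lower signal, showed the reverse order, with 0.26 in KO mice (adjusted p = 0.16) and 0.48 in CTR mice (adjusted p = 0.0027).

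Rps19bp1, which binds Rps19 and activates the deacetylase SIRT1, had 9.64, 9.23, 9.46, 9.49 and 10.06 in KO mice after KA, against 8.95 to 9.40 (median 9.25) after saline, and 10.22, 9.57, 10.42, 9.54 and 10.10 in CTR mice after KA, against 8.87 to 9.47 (median 9.10) after saline. The groups overlapped in KO mice and did not in CTR mice. The difference was 0.37 in KO mice (adjusted p = 0.14) and 0.81 in CTR mice (adjusted p = 3.1e-04). Rps27l, a p53-induced paralog of Rps27, differed by 0.24 in KO mice (adjusted p = 0.32) and rose by 0.55 in CTR mice (adjusted p = 0.003), with arrays that overlapped. Rps26, Rps3 and Rps2 of the small subunit differed by 0.20, 0.04 and 0.01 in KO mice, where none was called, and rose by 0.44, 0.37 and 0.29 in CTR mice. All 4 of these CTR calls, with Rps27l, ended after quantile normalization, at adjusted p values between 0.055 and 0.60. The other members called in CTR mice alone (Rpl7a, Rpl19, Rpl12, Rps16 and Rpl35, named after their values were seen) and Rpl30, called in both genotypes, rose by between 0.28 and 0.57 in CTR mice. Of these 6, Rpl7a alone stayed called in CTR mice after quantile normalization (adjusted p = 0.01), and the other 5 had adjusted p values between 0.08 and 0.79.

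Besides Rpl7l1, described with the genotypes, the other paralogs were not called. Rpl3l, the muscle form of Rpl3, Rpl39l, the testis form of Rpl39, and Rps23rg1, a retrogene of Rps23, had mean signals of 7.96, 7.37 and 7.70, near the low end of the scale, where a fold change can be understated. Rps4l, which resembles Rps4x and is annotated by RefSeq as a transcribed pseudogene, has a symbol without -ps and so was kept by the rule. Its mean signal was 10.53, with differences of 0.21 in KO mice (adjusted p = 0.43) and 0.25 in CTR mice (adjusted p = 0.24). Ribosomal protein genes have many processed pseudogenes, and a probe can bind the RNA of a near-identical copy, so the origin of a signal is uncertain. Of the 32 probes of the pseudogene symbols left out, none was called after KA in KO mice, and 1 was higher and 1 lower in CTR mice. Of the 65 members 43 have 1 probe. Among the 22 with more, the widest gaps between probes in the CTR response were 0.85 for Rps24 and 0.82 for Rps19, whose brightest probes lie over 15 and showed 0.02 and 0.08. Of the 3 dimmer Rps24 probes, ILMN_2625060, annotated to another transcript than the brightest, rose by 0.81 in KO mice (adjusted p = 1.1e-04) and 0.87 in CTR mice (adjusted p = 1.4e-05). ILMN_1214875 showed 0.15 in KO mice (adjusted p = 0.7) and 0.51 in CTR mice (adjusted p = 0.023). ILMN_2502673, with a mean signal of 7.38, showed 0.24 (adjusted p = 0.016) and 0.01 (adjusted p = 0.94). The dimmer Rps19 probe (ILMN_2754355) rose by 0.62 in KO mice (adjusted p = 0.012) and 0.90 in CTR mice (adjusted p = 1.6e-04). Dimmer probes of Rpl28, Rpl29 and Rpl38, whose brightest probes were not called, were also higher in CTR mice. Their differences were 0.36, 0.63 and 0.43 (adjusted p = 0.0072, 5.0e-04 and 0.01). In KO mice the same probes showed 0.42, 0.30 and 0.17 (adjusted p = 0.0046, 0.15 and 0.5). A dimmer Rpl31 probe (ILMN_3073486) was called higher in KO mice (0.30, adjusted p = 0.045) and not in CTR mice (0.16, adjusted p = 0.3). The dimmer probes of Rpl21, Rpl23, Rpl27a, Rpl37 and Rps9 were not called in CTR mice.

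**Figure D3:**
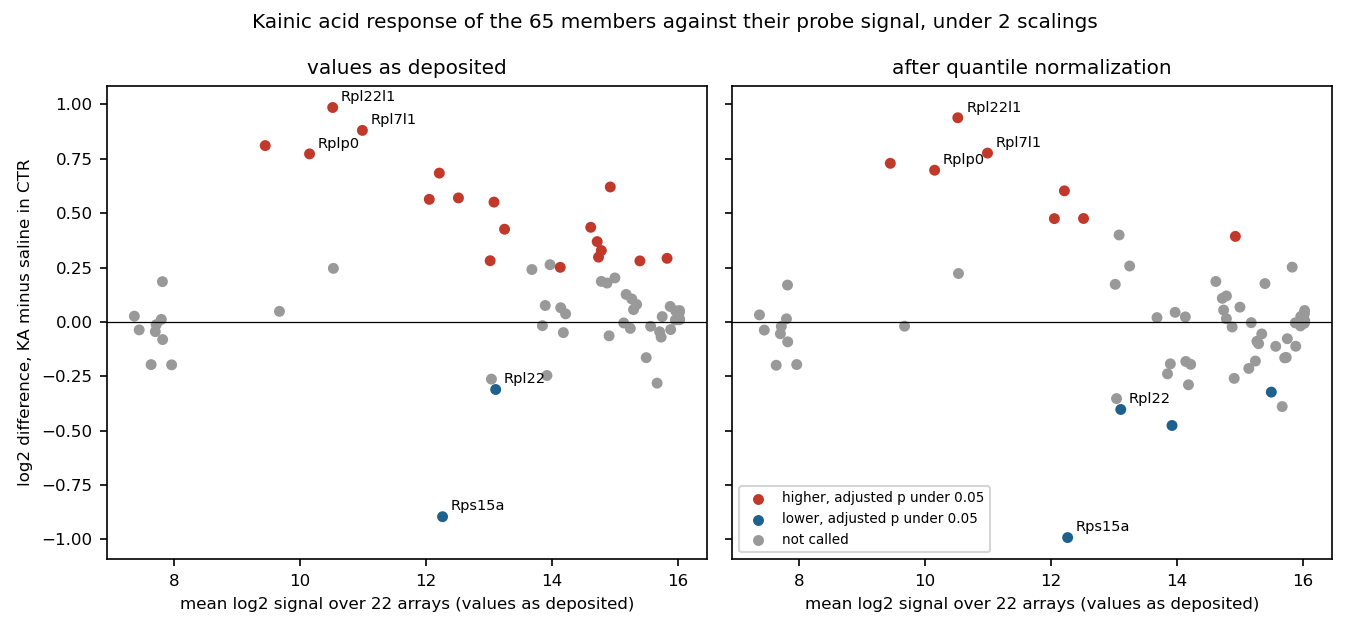
Log2 difference between KA and saline in CTR mice (y axis) against the mean log2 signal (x axis) of the 65 members, for the values as deposited (left) and after quantile normalization (right). With the values as deposited, 18 members are higher and 2 lower and, after quantile normalization, 8 are higher and 4 lower.

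Few of these genes differed between KO and CTR mice. After saline no member was called with limma between KO and CTR mice (0% of all genes higher, 0.00445% lower), 1 passed an unadjusted p of 0.05, and all 65 lay within 0.25 of no difference. That 1 was Rps2, at 15.87 ± 0.08 in KO mice and 15.64 ± 0.24 in CTR mice (SD, n = 6 each), a difference of 0.23 (unadjusted p = 0.013, adjusted p = 1). The median difference was 0.01 for the members and 0.00 for all genes.

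After KA, 1 member was lower in KO mice and none was higher (6.62% and 6% of all genes), 8 passed an unadjusted p of 0.05, and 57 of the 65 lay within 0.25 of no difference. The median was 0.02. The member was Rpl7l1, a paralog of Rpl7 found in precursors of the large subunit. It had 10.95, 10.85, 11.06, 11.13 and 11.34 in KO mice after KA and 12.14, 11.11, 11.84, 11.48 and 11.46 in CTR mice after KA, and its saline signals were 10.39 to 10.96 (median 10.71) in KO mice and 10.52 to 10.87 (median 10.74) in CTR mice. The 2 KA groups overlapped, and the CTR arrays after KA all lay above the CTR saline arrays. The difference was −0.54 after KA (SE 0.14, adjusted p = 0.016, 1.45-fold lower in KO mice). The response to KA was 0.38 in KO mice (adjusted p = 0.076) and 0.88 in CTR mice (adjusted p = 2.5e-05). The genotype call was lost with the 2 compared groups alone in the fit (adjusted p = 0.12), with the mean of both Rpl7l1 probes (−0.24, adjusted p = 0.36) and without KO KA replicate 2 (adjusted p = 0.054). The second Rpl7l1 probe (ILMN_2661407), of lower signal (mean 9.32), differed by 0.06 between the genotypes after KA (adjusted p = 0.94). Its responses to KA had the reverse order, with 0.42 in KO mice (adjusted p = 0.27) and 0.21 in CTR mice (adjusted p = 0.61). Without the 5 arrays apart, Rpl39 was higher in KO mice by 0.25 (adjusted p = 0.023), and Rpl7l1 (−0.64, adjusted p = 0.016), Rpl4 (−0.49, adjusted p = 0.024) and Rps3 (−0.37, adjusted p = 0.046) were lower. After quantile normalization, Rps13 (0.44, adjusted p = 7.0e-04) and Rps15a (0.55, adjusted p = 0.039) were higher in KO mice and Rpl7l1 (−0.45, adjusted p = 0.048) was lower. That step moved the median genotype difference of genes with a mean signal of 12 or more from 0.01 to 0.11.

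The test of whether the response to KA differed between the genotypes, the interaction, called no member with limma (2.56% of all genes higher, 3.24% lower), and 3 passed an unadjusted p of 0.05. The median interaction term was 0.01, and the single terms lay between −0.50 for Rpl7l1 and 0.53 for Rps15a. For no member did the difference between the responses pass the threshold, although more members were called in CTR than in KO mice. Besides Rpl7l1, the members under the unadjusted threshold were Rps3 and Rps2, with terms of −0.33 (adjusted p = 0.26) and −0.28 (adjusted p = 0.28).

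Of the genes that build the ribosome a larger share was called after KA than of the members, most of them higher. For this list and those that follow, the shares over all genes were 8.19% higher and 9.14% lower after KA in KO mice. They were 14.6% and 15% in CTR mice, and 6% higher and 6.62% lower in KO than in CTR mice after KA. Of 82 measured assembly and nucleolar factors, 28 were higher and 1 lower after KA in KO mice, and 47 were higher and 4 lower in CTR mice, with medians of 0.30 and 0.46. Between the genotypes after KA, 2 were higher and 20 lower in KO mice (median −0.19), and 11 had a lower and none a higher interaction term. Sbds, which releases the factor that keeps the subunits apart, had 13.36 ± 0.12 in KO mice and 14.10 ± 0.15 in CTR mice after KA, and 12.81 ± 0.11 and 12.83 ± 0.12 after saline (SD, n = 5 and 6 per genotype). Its genotype difference after KA was −0.75 (adjusted p = 2.0e-06). Nop58, a core protein of box C/D particles that modify ribosomal RNA, had 12.01 ± 0.28 in KO mice and 13.16 ± 0.22 in CTR mice after KA, a difference of −1.15 (adjusted p = 2.2e-06).

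Of 33 initiation factors, 9 were higher in KO mice after KA and 18 in CTR mice, with none lower in either, and 8 were lower in KO than in CTR mice after KA. Of 20 elongation factors and other TOP transcripts, 7 were higher and 1 lower in KO mice, and 13 were higher and 1 lower in CTR mice, with 1 higher and 6 lower in KO than in CTR mice after KA. Eif5a, which helps ribosomes through stalls, rose 1.39-fold in KO mice (adjusted p = 0.02) and 2.36-fold in CTR mice (adjusted p = 2.0e-07). Eef2, the translocation factor and a TOP transcript, differed by 0.12 in KO mice (adjusted p = 0.78) and rose by 0.58 in CTR mice (adjusted p = 0.011), while Eef2k, the kinase that inhibits Eef2, fell by 0.50 in KO mice (adjusted p = 0.0027) and 1.31 in CTR mice (adjusted p = 4.1e-09). After quantile normalization the counts in CTR mice were 44 higher and 4 lower for assembly factors, 14 and 5 for initiation factors, and 11 and 1 for the elongation list. Between the genotypes after KA they were 2 higher and 18 lower in KO mice for assembly factors, 1 and 7 for initiation factors, and 1 and 3 for the elongation list, whose median was −0.10 after quantile normalization and −0.28 before.

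**Figure D4:**
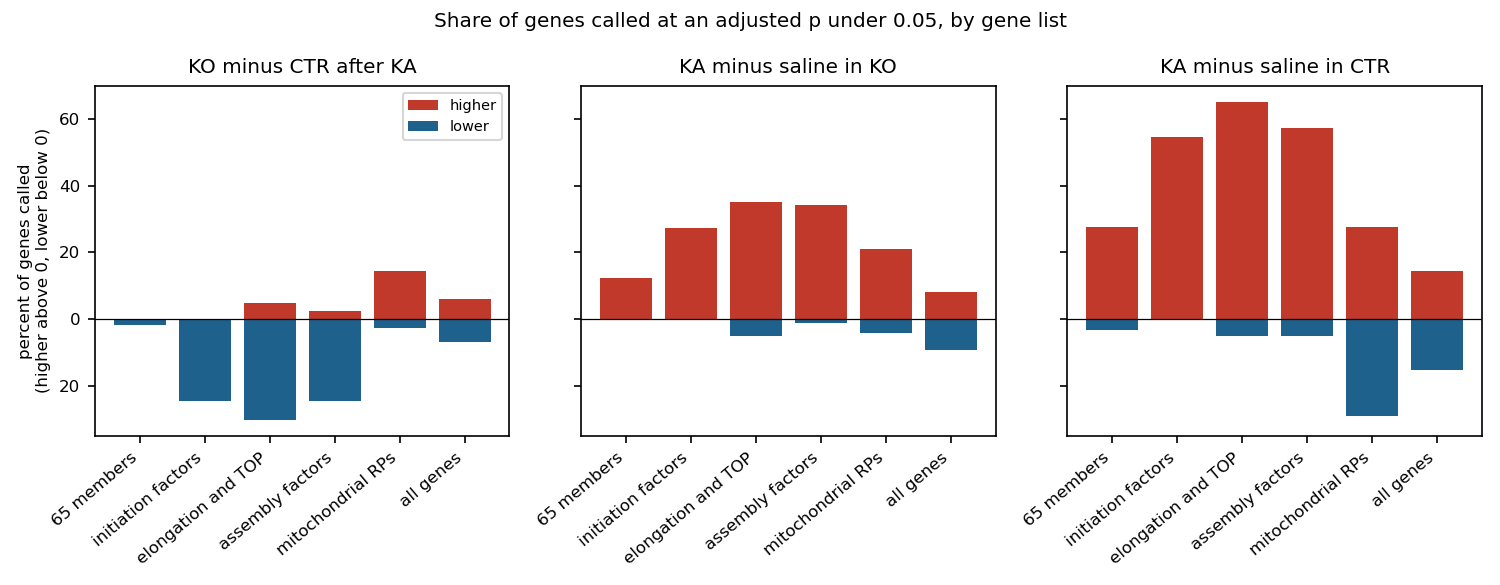
Percent of the genes of each list called higher (red, above 0) or lower (blue, below 0) at an adjusted p under 0.05 (y axis), for KO minus CTR after KA, KA minus saline in KO and KA minus saline in CTR. The 65 members have 1 call between the genotypes and 8 and 20 calls after KA, and among assembly factors 20 are lower and 2 higher between the genotypes, and 28 and 47 are higher after KA.

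Mitochondrial ribosomal proteins, a separate set of genes for the ribosome of mitochondria, moved in both directions. Of 76 genes, 16 were higher and 3 lower after KA in KO mice, and 21 were higher and 22 lower in CTR mice. Between the genotypes after KA, 11 were higher and 2 lower in KO mice. Mrpl34 had 10.997 ± 0.15 in KO mice and 10.19 ± 0.16 in CTR mice after KA, a difference of 0.81 (adjusted p = 1.8e-06). Mrps12 rose 1.93-fold in KO mice (adjusted p = 1.3e-05) and 1.97-fold in CTR mice (adjusted p = 2.4e-06).

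Of 24 measured regulators of mTORC1 and of TOP messages, 4 were higher and 5 lower after KA in KO mice, and 7 were higher and 7 lower in CTR mice. Rheb, the GTPase that activates mTORC1, rose 1.89-fold in KO mice (adjusted p = 1.4e-08) and 3.61-fold in CTR mice (adjusted p = 4.4e-14), and was lower in KO than in CTR mice after KA by 0.93 on the log2 scale (adjusted p = 6.9e-08). Larp1, which binds the start of TOP messages, differed by 0.24 in KO mice (adjusted p = 0.34) and rose by 0.94 in CTR mice (adjusted p = 1.4e-05). The genes named from these 5 lists were chosen after their values were seen. No gene of the 5 lists was called with limma between the genotypes after saline.

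Some cell markers were called in the same comparisons. Beside them, 8.19% of all genes were higher and 9.14% lower after KA in KO mice, and 14.6% and 15% in CTR mice. Between the genotypes after KA, 6% of all genes were higher and 6.62% lower in KO mice. Lists of 9 to 12 markers are too short to set firmly against these shares. Of 10 astrocyte markers 2 were higher and 1 lower after KA in KO mice and 3 were higher in CTR mice, with mean signals of the list between 13.18 and 13.38 in KO mice and 13.39 and 13.69 in CTR mice after KA, and between 13.18 and 13.43 in KO mice and 13.08 and 13.32 in CTR mice after saline. Of 10 interneuron markers 1 was higher in KO mice and 3 in CTR mice, with list means of 11.59 to 11.85 in KO mice and 11.67 to 12.12 in CTR mice after KA, and 11.64 to 11.83 in KO mice and 11.45 to 11.65 in CTR mice after saline. Of 11 markers of microglia 1 was lower in KO mice after KA, and in CTR mice 1 was higher and 3 lower. Of 9 oligodendrocyte markers 1 was lower in KO mice and none was called in CTR mice. Of 10 endothelial markers none was called in KO mice, and 3 were higher and 3 lower in CTR mice. Of 10 markers of CA1 and CA3 pyramidal neurons 1 was higher and 3 were lower in each genotype. Of the 12 granule cell markers 1 was higher and 1 lower in KO mice, and 4 were higher and 3 lower in CTR mice. Between KO and CTR mice after KA, the granule cell list had 3 higher and 3 lower in KO mice, the interneuron list 3 lower, the astrocyte list 2 lower, the endothelial list 2 lower, the microglia list 1 higher and 1 lower, the CA1 and CA3 list 1 higher, and the oligodendrocyte list none. These calls go with the same contrast as those of the assembly, initiation and elongation lists. The part of these cells in the values of those lists and of the ribosomal proteins was not tested.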

How the data were processed

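Log2 signals of 46237 probes on 22 arrays were used as deposited. Per the study's methods the authors subtracted background from the scanner intensities, applied quantile normalization and took log2, but the deposited arrays' 99th percentiles range from 14.41 to 15.01, so their quantiles are not equal. A second deposited table, called non-normalized, holds signal intensities whose 99th percentile is 14.652 on the log2 scale in every column, so it is already quantile normalized. By value each column matched 1 array (r of at least 0.982), but 6 of 22 matched the array of the same title and 14 an array of another group, so it entered no comparison. Columns with no sample numbered 0. Symbols came from the platform's annotation, which can be old.

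A group-means model was fitted to all probes with limma 3.58.1 (lmFit, eBayes, 18 residual degrees of freedom) in R 4.3.3, for 5 contrasts, 2-sided, with Benjamini-Hochberg adjustment over 46237 probes, and tested on simulated data. A call is an adjusted p under 0.05. Counts over all genes use the brightest probe of each of 22491 genes. The members and lists were chosen with earlier results of these data known. Genes were named by rule: the P-stalk genes and Rps6, the paralogs and Rps19bp1, the 4 smallest p-values in each direction of each contrast, and the 2 brightest and 2 dimmest members. Others named are said to be chosen later. Alternatives covered scaling, filters, weights, the set of arrays and the replicate number. Figures were drawn with matplotlib 3.10.9.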

Additional observations from a re-analysis of the deposited data

Results flagged for a closer look

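In 11 of 120 groups checked, 1 array stood far from the others of its group, and chance alone gives about 1 in 20. Among the KO arrays after KA, replicate 1 was low for Rpl17 (7.174, nearest 7.489) and for Rpl41 (15.851, nearest 16.008). Replicate 5 of that group, one of the 5 arrays that stood apart, was low for Rplp2 (14.412, nearest 15.235) and Rps24 (15.527, nearest 15.774) and high for Rps19 (15.698, nearest 15.408). Among the CTR arrays after KA, replicate 4 was low for Rps6 (13.914, nearest 14.289). Among the KO arrays after saline, replicate 1 was low for Rplp1 (15.924, nearest 16.046) and high for Rps18 (8.015, nearest 7.711), replicate 6 was high for Rps23rg1 (7.964, nearest 7.758) and replicate 2 was high for Rps3 (14.841, nearest 14.66). Among the CTR arrays after saline, replicate 1 was low for Rplp1 (15.77, nearest 16.009). The cause was not tested in any of them.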

How the results depend on the processing

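The medians of the members were too near 0 to have a firm sign. Leaving out 1 array gave −0.01 to 0.03 between the genotypes after KA, −0.01 to 0.03 after saline and −0.03 to 0.03 for the interaction, and quantile normalization brought the median for KA in CTR mice to 0.00. For KA the members' median was 0.04 to 0.10 in KO mice and 0.05 to 0.09 in CTR mice without 1 array. Genes with a mean signal of 12 or more had a median of −0.15 for KA in CTR mice after quantile normalization. No called difference of a gene named by rule changed sign under the alternatives run. Uncalled differences were not counted, and some did change sign. For Rps13 in CTR mice, the response to KA was 0.04, and −0.20 after quantile normalization. Of the counts of called members under alternatives that kept every array or left out a set of arrays, 46 stayed within 1.5 times, 4 were greater and 4 smaller. The 46 include counts of 0 in both fits, as between the genotypes after saline with quantile normalization. Between KO and CTR mice after KA, 1 member was called, against 0 with the compared groups alone in the fit, 3 (2 higher, 1 lower) after quantile normalization and 4 (1 higher, 3 lower) without the 5 arrays apart. For KA in KO mice, 8 were called, against 13 (10 higher, 3 lower) with array weights and 5 without the 3 arrays of lowest 99th percentile or without the 5 arrays apart. For KA in CTR mice, 20 were called, against 12 after quantile normalization. The interaction called 0, against 1 (Rps13) after quantile normalization. Leaving out 1 array gave 0 to 4 calls between the genotypes after KA (0 without KO KA replicate 2, 4 without KO KA replicate 5, 3 without CTR KA replicate 1 or 5, 2 without KO KA replicate 1 or CTR KA replicate 2, 3 or 4), 0 after saline, 4 to 10 for KA in KO mice (4 without KO KA replicate 1, 5 without KO KA replicate 5 or KO saline replicate 3 or 6), 16 to 20 for KA in CTR mice and 0 to 1 for the interaction (1 without CTR KA replicate 2). Quantile normalization, centring on bright genes and the arrays left out in sets or set as a term were chosen after seeing the data. Normalization of the second table and the BeadChip as a block were not run.

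Same-numbered arrays had mixed correlations (from −0.24 to 0.37, and over 0.1 in 3 of 5, 3 of 6, 1 of 5 and 3 of 5 pairs). These pairs are too few to tell whether the numbers pair the samples. The 5 arrays that stood apart all have replicate number 5 or 6. With the replicate block, 7 members were called in KO mice and 21 in CTR mice after KA, 1 between the genotypes after KA, 0 after saline and 0 for the interaction.

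Signals crowd near the top of the scale in the 23 members over 15 and near its low end in the 9 under 9, so changes there can be understated, and the number of arrays limits the precision elsewhere.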
